A study of Mus musculus with 32 samples.

Results

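The genes described here were 10 genes of the enzymatic defence against reactive oxygen species, taken by symbol from the raw gene count table: Sod1, Sod2, Cat, Gpx1, Gpx4, Prdx1, Prdx2, Txn1, Txnrd1 and Nfe2l2. All 10 were among the 24421 genes of the table, and all 10 passed the filter on low counts that left 14154 genes for testing. Nfe2l2, which encodes the transcription factor NRF2, is not an enzyme itself and was kept with the enzymes as their regulator. Expression was measured by RNA-seq in 8 fractions sorted by flow cytometry from the bone marrow of female C57BL/6 mice, for which the labels name no transgene, deletion or treatment. The fractions were hematopoietic stem cells (HSCs), the multipotent progenitors MPP1, MPP2, MPP3 and MPP4, and 3 progenitors with narrower fates: GMPs, which give rise to granulocytes and macrophages, MEPs, which give rise to megakaryocytes and red cells, and CLPs, the common lymphoid progenitors. Each fraction was taken from mice of 10 weeks (Young) and of 20 months (Aged), with 2 libraries in each of the 16 groups and 32 in all. HSCs and MPPs were all Lin- Sca-1+ c-kit+ cells, parted by CD34, CD150, CD48 and Flt3. HSCs were the CD34- cells among them, and MPP4 the Flt3+ cells. GMPs and MEPs were Sca-1- c-kit+ cells with and without Fcγ receptor and CD34, and CLPs were IL-7+ cells with low Sca-1 and c-kit in the wording of the labels. One figure legend of the study states that the marrow of mice of one age was combined and each fraction sorted 2 times. Other legends call the 2 HSC samples of an age biologically independent. The spread between the 2 libraries of a group may thus be technical, and the p-values measure only that spread.

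Superoxide leaks from the respiratory chain and is made on purpose by the NADPH oxidase of phagocytes. Superoxide dismutases turn it into hydrogen peroxide, Sod1 in the cytosol and Sod2 in the mitochondrial matrix. Hydrogen peroxide is then removed by catalase (Cat) in peroxisomes, by the glutathione peroxidases Gpx1 and Gpx4, and by the peroxiredoxins Prdx1 and Prdx2. Gpx4 is the member of its family that reduces lipid peroxides within membranes. Peroxiredoxins are reduced again by thioredoxin (Txn1), and thioredoxin by the selenoenzyme thioredoxin reductase (Txnrd1) at the cost of NADPH. NRF2 is held in the cytosol by KEAP1 and degraded until oxidants or electrophiles release it, and it then binds antioxidant response elements near its target genes. HSCs are known to be sensitive to reactive oxygen species, and red cells, the final product of MEPs, carry large amounts of catalase, Prdx2 and Gpx1.

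The core of the antioxidant response element, TGACNNNGC, was looked for on both strands in RefSeq promoter windows of GRCm38.p6 that run from 250 bases before to 50 bases after each gene's start. The 10 genes had 15 such windows, 4 for Gpx4 and 3 for Txnrd1. 4 of the genes held the letters in a window (Nfe2l2, Prdx1, Txnrd1 in 1 of its 3 windows, and Sod1), against 17.3% of the 10646 tested genes with a window and 12.4% of all 32851 windows. The sequences are shown because NRF2 is one of the genes and the element is its binding motif, and a match of the letters is not a bound site. The stretch printed for Prdx1 ends before the first exon of the GENCODE annotation, and the others hold the motif with the bases around it. Capitals mark the motif, which lies on the opposite strand in Prdx1, Txnrd1 and Sod1 and so reads GCNNNGTCA there.
Prdx1, bases 250 to 56 before its RefSeq start, chr4:116685349-116685543, + strand: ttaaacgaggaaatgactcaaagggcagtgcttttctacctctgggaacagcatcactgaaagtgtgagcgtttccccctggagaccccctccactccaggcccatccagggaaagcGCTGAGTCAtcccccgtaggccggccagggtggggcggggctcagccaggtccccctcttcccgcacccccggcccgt
Nfe2l2, chr2:75704874-75704913, - strand: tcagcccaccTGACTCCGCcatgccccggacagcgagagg
Txnrd1, chr10:82859093-82859143, + strand: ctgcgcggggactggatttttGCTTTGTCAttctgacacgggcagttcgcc
Sod1, chr16:90220685-90220735, + strand: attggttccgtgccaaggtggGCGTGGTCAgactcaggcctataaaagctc
The Prdx1 motif began 133 bases before the start of the gene and also held TGACTCA, the letters bound by AP-1 factors, which the other motifs did not. The motif lay from 240 to 232 bases before the start in Nfe2l2 and from 56 to 48 in Sod1. In Txnrd1 it lay from 92 to 84 bases before the start of 1 of its 3 windows. That place is inside the span GENCODE gives the gene (chr10:82833951-82897712), not before its first base. No window of Sod2, Cat, Gpx1, Gpx4, Prdx2 or Txn1 held these letters.

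Libraries held 11237384 to 17723245 counts. Each of the 10 genes was well covered in every library, from 332 counts for Sod1 to 57686 for Gpx1 at the extremes. Levels are given in counts per 1000000 (CPM), with each library total adjusted by the trimmed mean of M-values (TMM). Some transcripts of the sorting antigens were highest among young fractions where the gate selects them. Slamf1, which encodes CD150, averaged 53.9 CPM in young HSCs, Flt3 1063 in young MPP4 and Il7r 158 in young CLPs. Others did not match a gate or moved with age. Cd34 averaged 204 CPM in young HSCs, sorted as CD34- cells, against 654 CPM in young MPP1. Il7r averaged 13.4 CPM in young and 0.309 CPM in aged MEPs. Ly6a, which encodes Sca-1, averaged 35.2 CPM in young and 214 CPM in aged CLPs. Markers of other cells moved with age in some fractions. The summed level of 6 basophil and mast cell genes was 1740.2 and 1788 CPM in the young CLP libraries and 8.26 and 12.3 CPM in the aged ones, where Prss34 was at 0, and all 6 were called lower. The 8 B lineage genes summed to 205 and 210.2 CPM in young MEPs and to 0.861 and 1.22 CPM in aged MEPs. The 9 erythroid genes found in the table summed to 543 and 607 CPM in young and 23.7 and 56.8 CPM in aged GMPs, with 7 of 9 called lower. The 10 neutrophil genes summed to 275 and 299 CPM in young and 651 and 843 CPM in aged HSCs, with 7 of 10 called higher. The 6 megakaryocyte genes summed to 38.4 and 39.8 CPM in young and 115 and 186 CPM in aged CLPs, with 5 called higher, and 3 or 4 of them were called lower in each of MPP2, MPP3 and MPP4.

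In the mm10 assembly used for the counts, the GENCODE annotation places Sod1 (chr16:90220754-90226329, + strand) and Sod2 (chr17:13006846-13040063, + strand), the dismutases, on separate chromosomes. The peroxide-removing enzymes are Cat (chr2:103453849-103485160, - strand), Gpx1 (chr9:108338903-108340343, + strand), Gpx4 (chr10:80047166-80056439, + strand), Prdx1 (chr4:116685544-116700822, + strand) and Prdx2 (chr8:84969587-84974834, + strand). The thioredoxin pair is Txn1 (chr4:57943373-57956411, - strand) and Txnrd1 (chr10:82833951-82897712, + strand), and the regulator Nfe2l2 (chr2:75675513-75704641, - strand). The table holds 1 count a gene, so exons and untranslated regions cannot be told apart.

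Per length of the principal transcript, Gpx1 stood above the other genes in every young fraction, with a median over the 8 young fractions of 1222 CPM per kb. Gpx4 (223 CPM per kb), Prdx1 (207), Txn1 (192) and Prdx2 (176) followed. Cat had a median of 83.7 CPM per kb, Txnrd1 of 77.8, Sod1 of 55.7, Nfe2l2 of 35.1 and Sod2 of 19.1. The cytosolic and glutathione-linked peroxidases thus had the higher levels per length, and the regulator and the mitochondrial dismutase the lower ones. Lengths were those of 1 annotated transcript a gene, so a gene expressed mainly as another isoform would be placed elsewhere in this order. Prdx2 and Gpx1 were also the genes that varied by the largest factors apart from Nfe2l2: between the highest and lowest young fraction, mean CPM differed 5.19-fold for Prdx2, 3.56-fold for Nfe2l2 and 3.41-fold for Gpx1. Txnrd1 varied the least, 1.41-fold. In bulk libraries fewer cells expressing a gene and less RNA in each cell cannot be told apart.

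**Figure D1:**
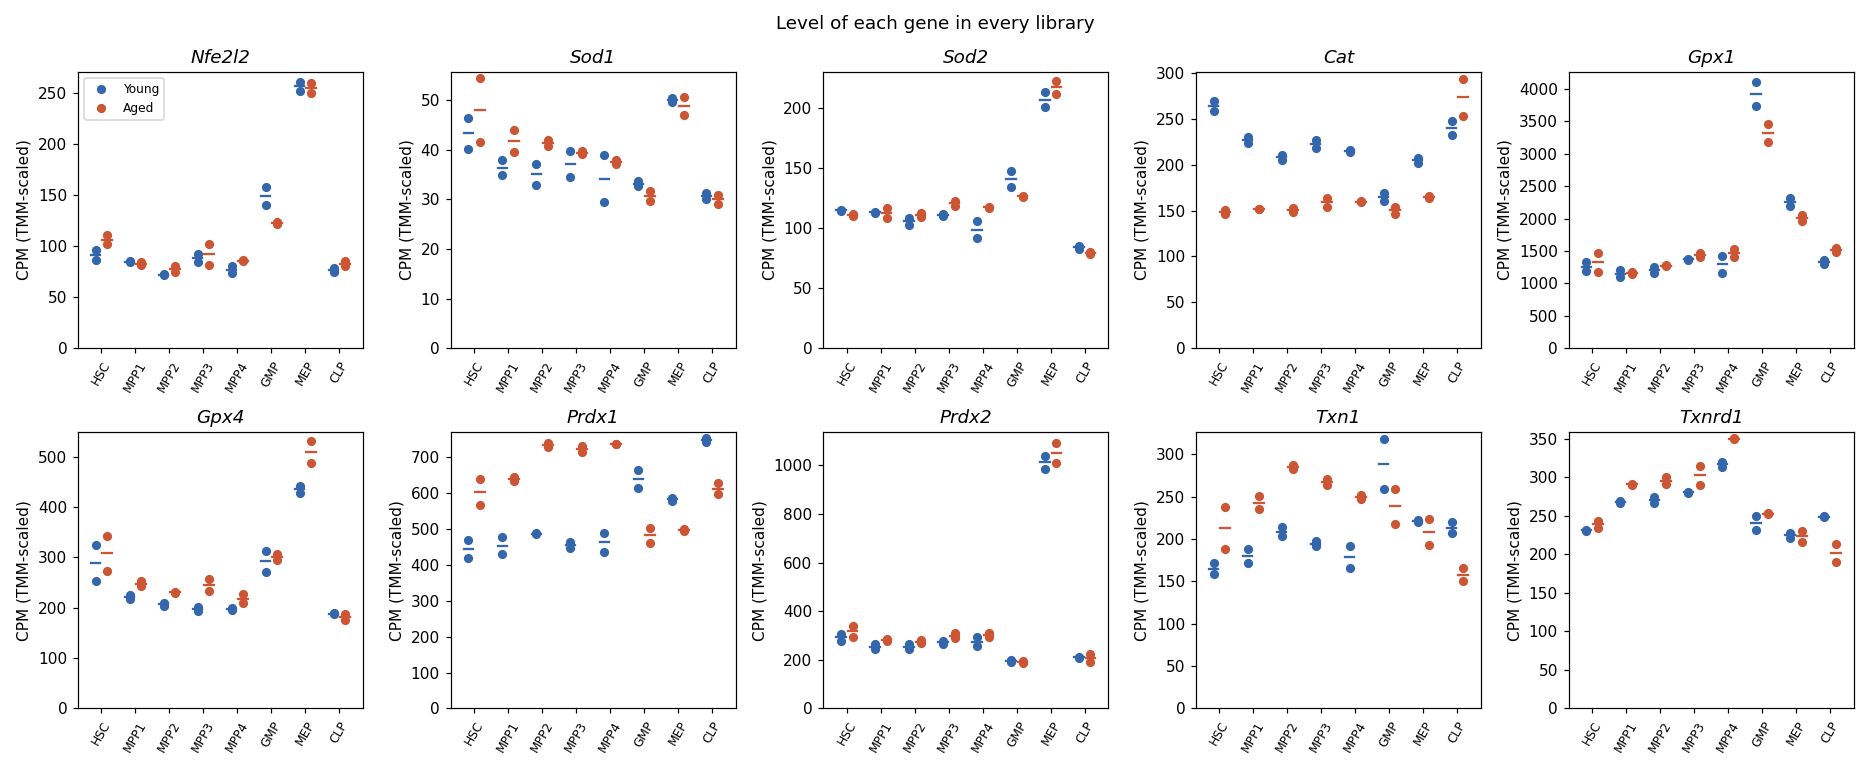
Level of each of the 10 genes in counts per 1000000 (CPM, scaled by the trimmed mean of M-values) in the 8 fractions, with a point for each of the 2 libraries of a group (blue Young, red Aged) and a bar at their mean; every vertical axis starts at 0. Aged Cat points lie under the young ones in all fractions except CLPs, aged Prdx1 points lie above the young ones in HSCs and MPP1 to MPP4 and under them in GMPs, MEPs and CLPs, and Prdx2 and Nfe2l2 are highest in MEPs at both ages.

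The first question of the design was how expression differs between Aged and Young cells of the same fraction. Of the 10 genes, Cat and Prdx1 changed with age in most fractions, Txn1 in some, Txnrd1 and Sod2 in 1 fraction each, and Sod1, Gpx1, Gpx4, Prdx2 and Nfe2l2 passed the test (adjusted p under 0.01, edgeR's quasi-likelihood test) in none. In HSCs, Prdx1 rose and Cat fell, where 3.74% of all tested genes were called higher and 1.66% lower. The same pair of calls was made in MPP1, beside 4.71% of all genes higher and 2.09% lower. In MPP2 and MPP3, Prdx1 and Txn1 rose and Cat fell. The background there was 4.49% higher and 3.31% lower in MPP2, and 8.14% higher and 5.79% lower in MPP3. MPP4 added a rise of Sod2 to these, so that 3 of the 10 were higher and 1 lower, against 10.3% and 6.27% of all genes. In GMPs 1 of the 10, Prdx1, was called, and it was lower, as were 8.97% of all genes, with 9.93% higher. In MEPs the 1 call was a fall of Cat, beside 11.7% of all genes lower and 9.09% higher. In CLPs Prdx1, Txn1 and Txnrd1 were lower and none higher, against 4.73% and 5.71% of all genes.

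The median log2 difference over the 10 genes was 0.10 in HSCs, 0.15 in MPP4, 0.13 in MPP1, 0.12 in MPP2 and 0.11 in MPP3. It was -0.15 in GMPs, -0.02 in MEPs and -0.04 in CLPs. Over all tested genes the median lay between -0.04 and 0.02 in these comparisons. The set as a whole was thus slightly above the median gene in HSCs and MPPs, and below it in GMPs, with 9 of the 10 estimates above 0 in MPP2, MPP3 and MPP4 and 2 of 10 in GMPs. When counts were scaled by library totals alone, the share of higher genes among all called genes was 56.4% in place of 69.2% in HSCs, 57.9% in place of 69.3% in MPP1, 42.7% in place of 57.6% in MPP2 and 47.1% in place of 58.4% in MPP3. It was 45.0% in place of 62.2% in MPP4, where DESeq2's size factors gave 52.0%, and 63.4% in place of 52.5% in GMPs. The calls among the 10 genes under library totals were those given above in HSCs, MPP1, MPP2, MPP3, GMPs and CLPs in number and direction. With that scaling the median over all genes in MPP4 was -0.11.

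**Figure D2:**
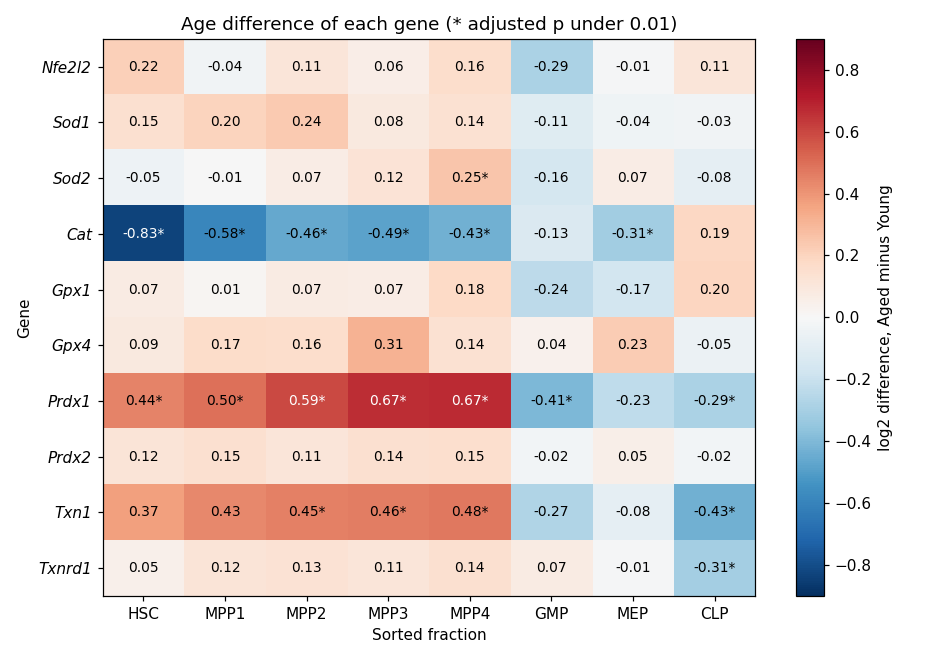
Estimated log2 difference between Aged and Young cells for the 10 genes (rows) in the 8 fractions (columns), with red for higher and blue for lower in Aged cells and a star where the adjusted p was under 0.01. Cat is blue in every column but CLP, and Prdx1 and Txn1 are red from HSC to MPP4 and blue in GMP, MEP and CLP.

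Catalase, which splits hydrogen peroxide without a reductant, had the largest age difference of the 10 genes, and it was in HSCs. Cat stood at 259 and 269 CPM in young HSCs and 146 and 151 CPM in aged HSCs, a log2 difference of -0.83 (SE 0.06, adjusted p = 1.8e-08), so that the level fell by 43.8%. The young and aged libraries did not overlap. In MPP1 it stood at 224 and 230.5 CPM in young MPP1 and 152 and 151 CPM in aged MPP1, a difference of -0.58 (SE 0.06, adjusted p = 3.1e-06). In MPP2 the values were 205 and 211 CPM in young MPP2 and 149 and 153 CPM in aged MPP2, a difference of -0.46 (SE 0.06, adjusted p = 5.3e-05). All young libraries were again above all aged ones. In MPP3 Cat measured 218 and 227 CPM in young MPP3 and 154 and 164 CPM in aged MPP3, a difference of -0.49 (SE 0.06, adjusted p = 1.2e-05). MPP4 libraries gave 216 and 214 CPM in young MPP4 and 159.9 and 159 CPM in aged MPP4, a difference of -0.43 (SE 0.06, adjusted p = 3.1e-05). The fall in the 5 stem and multipotent fractions was called under every alternative setting, including with only the 4 libraries of a fraction and without each library in turn. MEPs had 207 and 202 CPM in young MEPs and 166 and 164 CPM in aged MEPs, a smaller difference of -0.31 (SE 0.06, adjusted p = 0.00066), which lost its call with the 4 libraries of the fraction alone (adjusted p = 0.03). GMPs had 169 and 161 CPM in young GMPs and 154 and 146 CPM in aged GMPs, and their difference of -0.13 (SE 0.06, adjusted p = 0.13) did not pass the test. CLPs went the other way, with 247 and 232 CPM in young CLPs and 294 and 253 CPM in aged CLPs and a difference of 0.19 (SE 0.06, adjusted p = 0.041) that did not pass.

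The order of the fractions by Cat level differed between the ages. In young marrow HSCs had the highest mean level (264 ± 7.55 CPM, SD, n = 2), followed by CLPs (239.9 ± 10.6), MPP1 (227 ± 4.78) and MPP3 (222 ± 6.34), and GMPs the lowest (165 ± 5.78). The ranges of MPP1 and MPP3, and of MPP2 and MEPs, overlapped in that order, and other neighbours did not. In aged marrow CLPs stood apart at 273 ± 29.0 CPM, and the other 7 fractions lay between 148 in HSCs and 165 in MEPs. Aged HSCs thus moved from the top of the order to its bottom, where their range overlapped that of GMPs. In HSCs the summed level of the 10 macrophage genes was 68.4 and 82.8 CPM in young and 35.5 and 44.4 CPM in aged libraries, with 3 of 10 called lower and 0 higher, and the neutrophil genes rose there. Macrophage genes were also called lower with Cat in the other fractions where Cat fell, 7 of 10 in each of MPP3 and MPP4, 5 in each of MPP2 and MEPs and 3 in MPP1, and none was called higher. They were lower where Cat was not called as well, 5 of 10 in GMPs and 9 of 10 in CLPs with 1 higher. Erythroid genes were called lower in MPP2 (6 of 9) and MPP3 (7 of 9), with 1 of 9 in each of MPP4 and MEPs and 0 in HSCs and MPP1. The part of these cells in the Cat differences was not tested.

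Peroxiredoxin 1, a cytosolic enzyme that reduces hydrogen peroxide with electrons from thioredoxin, had the opposite sign in 2 sets of fractions. It rose with age in HSCs and all MPPs and fell in GMPs and CLPs. In HSCs Prdx1 measured 418 and 471 CPM in young HSCs and 569 and 640.3 CPM in aged HSCs, a log2 difference of 0.44 (SE 0.07, adjusted p = 0.0002). In MPP1 it measured 430.2 and 478 CPM in young MPP1 and 645 and 635 CPM in aged MPP1, a difference of 0.50 (SE 0.07, adjusted p = 5.8e-05). The aged libraries were above the young ones in both fractions. In MPP2 the values were 485 and 489 CPM in young MPP2 and 729 and 741 CPM in aged MPP2, a difference of 0.59 (SE 0.07, adjusted p = 1.1e-05). MPP3 gave 466 and 447 CPM in young MPP3 and 716 and 732 CPM in aged MPP3, a difference of 0.67 (SE 0.07, adjusted p = 1.2e-06). MPP4 gave 437 and 488 CPM in young MPP4 and 737 and 736 CPM in aged MPP4, a difference of 0.67 (SE 0.07, adjusted p = 6e-07), or 1.59-fold. The rise in the 4 MPP fractions was called under every alternative. In HSCs the call was lost without replicate 1 of young HSCs (log2 difference 0.36, adjusted p = 0.01) and with the 4 HSC libraries alone (adjusted p = 0.087).

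In GMPs Prdx1 measured 664 and 614 CPM in young GMPs and 463 and 503 CPM in aged GMPs, a difference of -0.41 (SE 0.07, adjusted p = 0.00018). This difference moved with the treatment of base composition: with offsets for GC content and transcript length fitted to each library it was -0.05 (adjusted p = 0.69), while the rise in MPP4 stayed at 0.66. The principal Prdx1 transcript has 42.3% G and C, near the lower end of the 10 genes, which run from 42.2% in Sod2 to 58.8% in Gpx4. MEPs had 588 and 578 CPM in young MEPs and 499 and 496 CPM in aged MEPs, with no overlap and a difference of -0.23 (SE 0.07, adjusted p = 0.016) that did not pass and was -0.01 with the offsets. CLPs had 744 and 754 CPM in young CLPs and 599 and 628 CPM in aged CLPs, a difference of -0.29 (SE 0.07, adjusted p = 0.0058). The aged CLP libraries were both below the young ones, but the call was lost without any single one of the 4 libraries and with the offsets (-0.25, adjusted p = 0.024). The CLP gate changed in several marker lists with age: 6 of 6 basophil and mast cell genes, 10 of 10 neutrophil genes (median log2 difference -2.33), 9 of 10 macrophage genes (median -5.28) and 7 of 8 B lineage genes were lower, and 5 of 6 megakaryocyte genes higher. The B lineage genes summed to 2772 and 2845 CPM in young and 1335 and 1350.2 CPM in aged libraries. Of the macrophage genes 1 was called higher, and their sums overlapped, at 321 and 352 CPM in young and 227 and 367 CPM in aged libraries. In GMPs 7 of 9 erythroid genes, 5 of 10 macrophage genes and 4 of 10 neutrophil genes were lower. Their part in these differences was not tested.

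Without the offsets, the order of fractions for Prdx1 differed between the ages. Young CLPs had the highest mean (749 ± 7.07 CPM, SD, n = 2), then GMPs (639 ± 34.8) and MEPs (583 ± 7.0), and the 5 stem and multipotent fractions lay below them between 445 in HSCs and 487 in MPP2 with overlapping neighbours. Aged MPP4 (737 ± 0.331), MPP2 (735 ± 8.78) and MPP3 (724 ± 11.2) were highest and overlapped, and aged MEPs (498 ± 2.33) and GMPs (483 ± 28.2) were lowest. The places of GMPs and MEPs rest on values without the offsets: with them, young GMPs and MEPs differed from young HSCs by -0.03 and -0.22 in place of 0.52 and 0.39, and aged GMPs and MEPs from young ones by -0.05 and -0.01.

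Thioredoxin 1, which hands electrons to the peroxiredoxins, followed Prdx1 in sign in every fraction, with fewer calls. In HSCs Txn1 measured 158 and 172 CPM in young HSCs and 189 and 238 CPM in aged HSCs, a difference of 0.37 (SE 0.11, adjusted p = 0.032) that did not pass. In MPP1 it measured 172 and 188 CPM in young MPP1 and 250.4 and 235 CPM in aged MPP1, with 0.43 (SE 0.11, adjusted p = 0.011), just outside the threshold. In neither did the ages overlap. MPP2 gave 203 and 214 CPM in young MPP2 and 288 and 282 CPM in aged MPP2, a rise of 0.45 (SE 0.11, adjusted p = 0.0069). MPP3 gave 197 and 191 CPM in young MPP3 and 271 and 264 CPM in aged MPP3, a rise of 0.46 (SE 0.11, adjusted p = 0.0039). MPP4 gave 166 and 192 CPM in young MPP4 and 251 and 247 CPM in aged MPP4, a rise of 0.48 (SE 0.11, adjusted p = 0.0024). Every aged library of MPP1 to MPP4 lay above every young one of its fraction, yet these calls were close to the threshold. Without 1 library of the fraction, 0 of 4 such fits kept the call in MPP2, 0 of 4 in MPP3 and 1 of 4 in MPP4. With the GC and length offsets the differences were 0.26, 0.27 and 0.32, and the call in MPP2 was lost (adjusted p = 0.018).

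In GMPs Txn1 measured 318 and 259 CPM in young GMPs and 218 and 259 CPM in aged GMPs, where the ages overlapped, a difference of -0.27 (SE 0.11, adjusted p = 0.064). In MEPs it measured 222 and 220.0 CPM in young MEPs and 224 and 193 CPM in aged MEPs, with a difference of -0.08 (SE 0.11, adjusted p = 0.63). Neither passed the test. CLPs had 206 and 219.7 CPM in young CLPs and 150.4 and 165 CPM in aged CLPs, a difference of -0.43 (SE 0.11, adjusted p = 0.0078) that no fit without 1 of the 4 libraries kept. Thioredoxin reductase 1 fell in CLPs with it: Txnrd1 measured 248 and 249.8 CPM in young CLPs and 190.1 and 213 CPM in aged CLPs, a difference of -0.31 (SE 0.06, adjusted p = 0.00085). That call was lost without replicate 2 of young CLPs (adjusted p = 0.011), without replicate 1 of aged CLPs (adjusted p = 0.037) and with the 4 CLP libraries alone (adjusted p = 0.074), and it kept its size with the GC and length offsets (-0.35). In the other 7 fractions Txnrd1 differed by -0.01 to 0.14 and did not pass. The basophil, neutrophil, macrophage and B lineage genes that were lower in the same aged CLP libraries, and the megakaryocyte genes that were higher, are given above, and their part in the Txn1 and Txnrd1 differences was not tested.

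**Figure D3:**
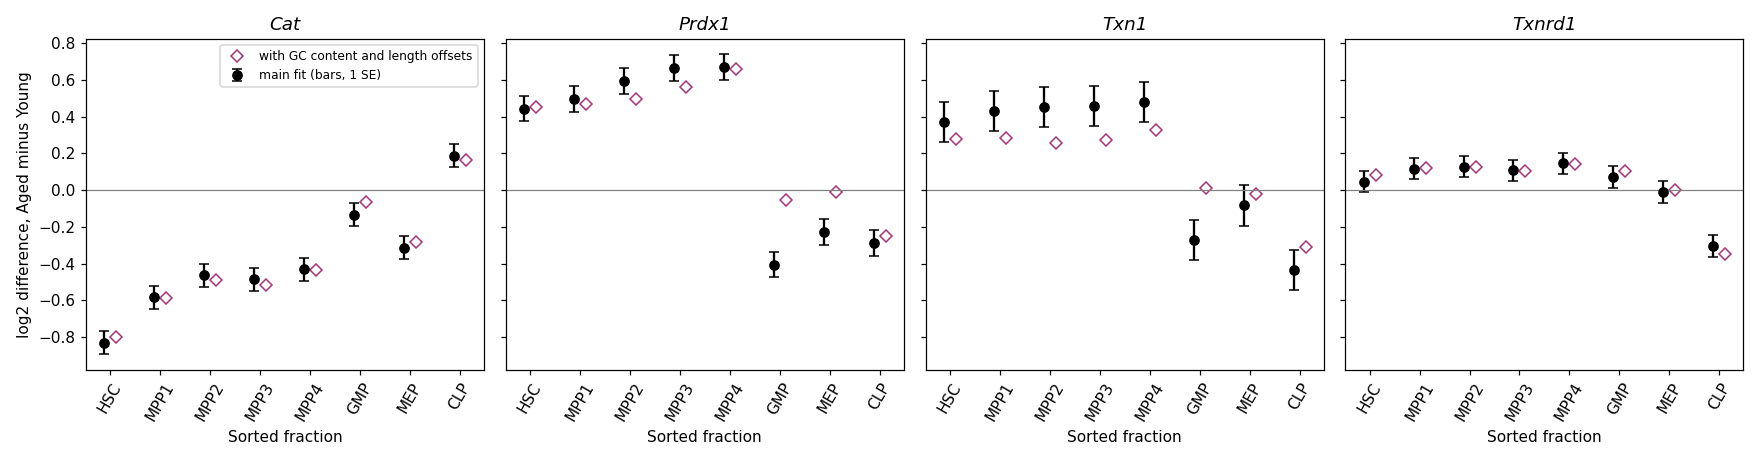
Log2 difference between Aged and Young cells for Cat, Prdx1, Txn1 and Txnrd1 in the 8 fractions, as black points with bars of 1 SE and, as open diamonds, with offsets for GC content and transcript length. The diamonds stay by the points for Cat and Txnrd1, and move to near 0 for Prdx1 in GMPs and MEPs (-0.05 and -0.01) and for Txn1 in GMPs (0.01).

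The remaining 6 genes differed little with age. Sod2, the mitochondrial dismutase, measured 91.5 and 106 CPM in young MPP4 and 118 and 117 CPM in aged MPP4, a rise of 0.25 (SE 0.07, adjusted p = 0.0082). This call was kept under 3 of 13 alternatives, and lost under DESeq2's size factors, DESeq2's own test and the GC and length offsets among others (0.32, adjusted p = 0.018 with the offsets). In the other fractions Sod2 differed by -0.16 in GMPs to 0.12 in MPP3. Sod1, the cytosolic dismutase and the gene with the fewest counts, differed by -0.11 in GMPs to 0.24 in MPP2, with standard errors of 0.12 to 0.13. Gpx1, which reduces soluble peroxides with glutathione, differed by -0.24 in GMPs to 0.20 in CLPs. With the GC and length offsets 3 of its differences passed the test: -0.29 in GMPs (adjusted p = 0.0001), -0.35 in MEPs (adjusted p = 6.6e-06) and 0.25 in CLPs (adjusted p = 0.00058). Gpx4 had its highest difference in MPP3, 0.31 (SE 0.10, adjusted p = 0.028), with 203 and 193 CPM in young MPP3 and 233 and 257 CPM in aged MPP3 and no overlap. Prdx2, the peroxiredoxin abundant in red cells, differed by -0.02 to 0.15. Nfe2l2 differed most in GMPs, by -0.29 (SE 0.09, adjusted p = 0.018), from 141 and 158 CPM in young to 124 and 122 CPM in aged libraries, and by 0.22 (SE 0.09, adjusted p = 0.13) in HSCs. Apart from Sod2 in MPP4, none of these differences passed without the offsets. Exons of Prdx2 overlap those of Junb and Rnaseh2a on the opposite strand by 173 and 177 bases, and with counts not stated to use strand some reads there cannot be assigned.

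Whether the age difference itself differed between fractions was tested directly. A joint test over the 8 fractions was passed by 4 of the 10 genes, where 34.9% of all tested genes passed: Prdx1 (adjusted p = 6.3e-09), Cat (adjusted p = 5.1e-07), Txn1 (adjusted p = 4.8e-05) and Txnrd1 (adjusted p = 0.002). Share for share the 10 genes were close to the background in this test. Each of HSCs, GMPs, MEPs and CLPs was then set against the mean age difference of MPP1 to MPP4, whose 16 libraries these 4 comparisons share. In HSCs Cat fell further than in MPPs, with a difference of -0.34 (SE 0.07, adjusted p = 0.0047), the only call of the 10 where 1.1% of all genes were called lower and 1.91% higher. That call was lost without any 1 of the 4 HSC libraries, with differences of -0.37 to -0.31. In GMPs 4 of the 10 were lower and 1 higher, against 13.8% and 12.7% of all genes. The difference was -1.01 (SE 0.08, adjusted p = 5.8e-09) for Prdx1 and -0.73 (SE 0.12, adjusted p = 7.2e-05) for Txn1. Cat had 0.36 (SE 0.07, adjusted p = 0.00041), that is, a smaller fall than in MPPs. Nfe2l2 had -0.36 (SE 0.10, adjusted p = 0.0068) and Sod2 -0.27 (SE 0.08, adjusted p = 0.0078), and both lost the call with the GC and length offsets (-0.18 and -0.24).

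Scaling by library totals moved the share of higher genes among all called genes in the GMP comparison from 47.9% to 62.1%, and DESeq2's size factors moved it in the HSC comparison from 63.5% to 74.9%. With the GC and length offsets the GMP difference of Prdx1 remained called at -0.60 (adjusted p = 1.6e-05), and that of Txn1 was -0.27 (adjusted p = 0.012) and no longer called. In MEPs 2 of the 10 were lower and 0 higher, against 14.7% and 10.2% of all genes: Prdx1 by -0.83 (SE 0.08, adjusted p = 6.2e-08) and Txn1 by -0.54 (SE 0.12, adjusted p = 0.0015). In CLPs 3 were lower and 1 higher, against 12.3% and 10.3% of all genes. Prdx1 differed from MPPs by -0.89 (SE 0.08, adjusted p = 3.6e-08) and Txn1 by -0.89 (SE 0.12, adjusted p = 9.7e-06). Txnrd1 differed by -0.43 (SE 0.07, adjusted p = 3.1e-05) and Cat by 0.68 (SE 0.07, adjusted p = 2.7e-07). The 4 CLP calls and the Prdx1 calls in GMPs and MEPs were made under every alternative fitted to all 32 libraries. The age difference of Prdx1 in MPPs thus differed from those in GMPs, MEPs and CLPs by this test, and the age difference of Cat in MPPs from that in CLPs.

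The other axis of the design was the level in each young fraction against young HSCs, which all 7 comparisons share as the reference. GMPs and MEPs had the most calls among the 10 genes and MPP1 the fewest. Calls over all tested genes were also most in GMPs and MEPs and fewest in MPP1, so this is not particular to the 10 genes. In MPP1 1 of the 10 genes was called, Gpx4, which was lower, where 5.67% of all genes were lower and 9.1% higher. In MPP2 3 were lower and 1 higher, against 16.1% and 17.5%. In MPP3 2 were lower and 1 higher, against 12.8% and 17.5%, and the same numbers were called in MPP4, against 16.1% and 18.5%. In GMPs 5 were higher and 3 lower, against 31.8% and 32.8% of all genes. In MEPs 7 were higher and 1 lower, against 29.7% and 39.0%. CLPs had 2 higher and 4 lower, against 29.2% and 28.1%. The median over the 10 genes was 0.50 in MEPs, where the median over all tested genes was -0.24, and 0.18 in GMPs, where it was -0.04. Scaling by library totals alone moved the median of all genes to -0.43 in MEPs and -0.46 in GMPs, and changed the counts among the 10 genes in GMPs from 5 higher and 3 lower to 3 higher and 5 lower, and in CLPs from 2 and 4 to 1 and 6. The share of higher genes among all called genes was then 32% in place of 49.2% in GMPs and 40.4% in place of 51.0% in CLPs.

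**Figure D4:**
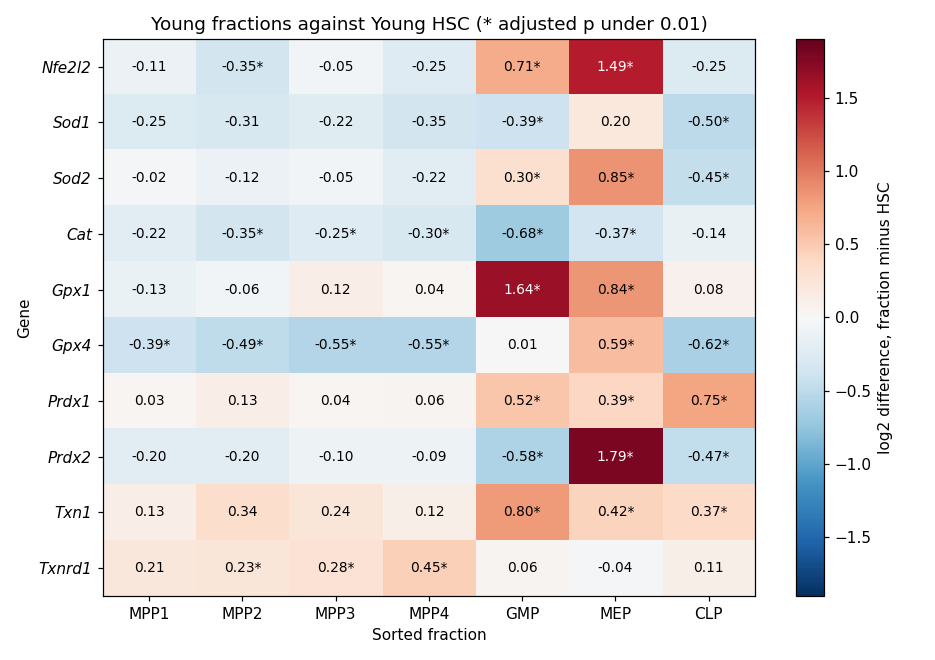
Estimated log2 difference between each young fraction (columns) and young HSCs for the 10 genes (rows), with red for higher and blue for lower than in HSCs and a star where the adjusted p was under 0.01. The darkest cells are Prdx2 (1.79) and Nfe2l2 (1.49) in MEPs and Gpx1 in GMPs (1.64).

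MEPs had the highest young level of the regulator, both dismutases, Gpx4 and Prdx2. Prdx2 measured 985 and 1039 CPM in young MEPs and 277 and 307 CPM in young HSCs, a log2 difference of 1.79 (SE 0.09, adjusted p = 3.2e-14). No library of another fraction, young or aged, was above 341 CPM. Of the genes whose exons overlap Prdx2, Junb averaged 61.2 CPM in young MEPs and 2632 CPM in young HSCs, and Rnaseh2a was highest where Prdx2 was highest, with 132 CPM in young and 141 CPM in aged MEPs against 48.3 CPM in young HSCs. Their part in the Prdx2 counts was not tested. Nfe2l2 measured 262 and 252 CPM against 86.8 and 96.6 CPM, a difference of 1.49 (SE 0.09, adjusted p = 1.3e-12), and it was higher in GMPs too, at 141 and 158 CPM, by 0.71 (SE 0.09, adjusted p = 2.9e-07). Sod2 measured 201 and 214 CPM in MEPs and 114 and 116 CPM in HSCs, a difference of 0.85 (SE 0.07, adjusted p = 1.4e-10). Gpx4 measured 442 and 428 CPM in MEPs and 254 and 325 CPM in HSCs, a difference of 0.59 (SE 0.10, adjusted p = 1.6e-05). Sod1, at 49.6 and 50.4 CPM in MEPs and 40.2 and 46.5 CPM in HSCs, did not differ by the test (0.20 (SE 0.12, adjusted p = 0.14)). These 4 calls in MEPs were made under every alternative.

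Gpx1 was highest in GMPs, with 4111 and 3735 CPM against 1184 and 1329.5 CPM in HSCs, a log2 difference of 1.64 (SE 0.10, adjusted p = 1e-12) or 3.12-fold. MEPs came second at 2187 and 2317 CPM, a difference of 0.84 (SE 0.09, adjusted p = 3.7e-08). Both were called under every alternative, and the ranges of the other 6 fractions overlapped their neighbours between 1151 and 1370.2 CPM. With the GC and length offsets Gpx1 was also called higher in MPP2 (0.20), where the main estimate was -0.06. GMPs had the lowest Prdx2, at 200.4 and 189 CPM (-0.58 (SE 0.09, adjusted p = 2.5e-06)), and the lowest Cat (-0.68 (SE 0.06, adjusted p = 2.8e-09)). The neutrophil genes summed to 87816 and 89172 CPM in these young GMP libraries, and GMPs had the lowest scaling factors of all libraries (0.807 to 0.849, against 0.924 to 1.11 elsewhere). With library totals as the scaling, Sod2 in GMPs was -0.13 in place of 0.30, Gpx4 -0.41 in place of 0.01 and Txnrd1 -0.37 in place of 0.06, so the direction of these 3 genes in GMPs depends on the scaling.

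Gpx4 was lower than in HSCs in all 4 MPP fractions and in CLPs, by -0.39 in MPP1 to -0.62 (SE 0.10, adjusted p = 1.3e-05) in CLPs. The 2 young HSC libraries themselves were apart, at 254 and 325 CPM, and without replicate 2 of young HSCs the MPP differences were -0.36 in MPP4, the one still called, -0.36 in MPP3, -0.30 in MPP2 and -0.20 in MPP1. Cat was lower than in HSCs in MPP2 (-0.35), MPP3 (-0.25) and MPP4 (-0.30), as well as in GMPs and MEPs (-0.37). Txnrd1 was the gene of the set that was higher in MPPs: 0.23 (SE 0.06, adjusted p = 0.0034) in MPP2, 0.28 (SE 0.06, adjusted p = 0.00058) in MPP3 and 0.45 (SE 0.06, adjusted p = 1.6e-06) in MPP4. Young MPP4 libraries held 320.4 and 313 CPM of it and young HSC libraries 230.2 and 232 CPM. In CLPs Prdx1 was higher by 0.75 (SE 0.07, adjusted p = 4.5e-09), under every alternative, and Txn1 by 0.37 (SE 0.11, adjusted p = 0.0056). The Txn1 call was lost with DESeq2's size factors (0.33, adjusted p = 0.011), the GC and length offsets (0.16, adjusted p = 0.051), library totals (0.18, adjusted p = 0.12), no filter on low counts, and without any 1 of the 4 libraries. In the same fraction Sod1 (-0.50), Sod2 (-0.45) and Prdx2 (-0.47) were lower. Nfe2l2 was also lower in MPP2 (-0.35 (SE 0.09, adjusted p = 0.0034)), and Sod1 in GMPs (-0.39 (SE 0.13, adjusted p = 0.0084)). Prdx1 and Txn1 were called higher in young GMPs (0.52 and 0.80) and young MEPs (0.39 and 0.42), but with the GC and length offsets Prdx1 was -0.03 and -0.22 and Txn1 0.10 and -0.30, the last of these called lower.

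Across the 16 group means of log2 CPM, the highest correlations among the 10 were those of 4 genes with a high level in MEPs: Pearson's r was 0.92 between Sod2 and Gpx4, 0.92 between Gpx4 and Nfe2l2, 0.92 between Sod2 and Nfe2l2 and 0.83 between Sod2 and Prdx2. These 4 genes also gave 0.79 between Gpx4 and Prdx2 and 0.78 between Prdx2 and Nfe2l2. Sod1 and Gpx1 had their highest or second level in young MEPs. Sod1 had 0.80 with Prdx2, 0.71 with Gpx4, 0.67 with Sod2 and 0.53 with Nfe2l2. Gpx1 had 0.66 with Nfe2l2, 0.52 with Sod2, 0.51 with Gpx4 and 0.09 with Prdx2. Between Sod1 and Gpx1 the value was -0.15. Prdx1 and Txn1 had r = 0.64, and Cat and Txn1 had the lowest value of the 45 pairs, -0.82. These are descriptions over 16 points that share libraries, scaling and base composition, and no test was made of them. The tested genes most like each member over the 16 groups were as follows. Prdx1 was most like Osgep (r = 0.81) and Ywhae (r = 0.80), Txn1 Psat1 (r = 0.94) and Hint1 (r = 0.89), and Txnrd1 Taf4b (r = 0.93) and Cdca7l (r = 0.93). Cat was most like Adap2 (r = 0.89) and Cyp51 (r = 0.88), and Gpx1 Tmem248 (r = 0.98) and Lman2 (r = 0.98). Nfe2l2 was most like Phykpl (r = 0.98) and Gcdh (r = 0.97), Prdx2 Ptdss2 (r = 0.97) and Klhl12 (r = 0.97) and Gpx4 Clpp (r = 0.97) and Spryd4 (r = 0.97). For Sod2 they were Psmd5 (r = 0.98) and Gfer (r = 0.98), and for Sod1 Tbrg1 (r = 0.96) and Acot6 (r = 0.95). No member was among the 2 genes most like another member.

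Around these 10 genes, 5 lists of 55 genes covered glutathione synthesis and use, the other thioredoxins and peroxiredoxins, regulators and targets of NRF2, the NADPH oxidase with the copper chaperone of Sod1, and selenoprotein synthesis, and 54 of them were tested. Calls with age among the 54 are given with their share, and the share over all tested genes after it. In HSCs 4 were higher (7.41%, against 3.74%) and 3 lower (5.56%, against 1.66%). In MPP1 3 were higher (5.56%, against 4.71%) and 4 lower (7.41%, against 2.09%). In MPP2 2 were higher (3.7%, against 4.49%) and 7 lower (13%, against 3.31%). In MPP3 3 were higher (5.56%, against 8.14%) and 10 lower (18.5%, against 5.79%). In MPP4 6 were higher (11.1%, against 10.3%) and 8 lower (14.8%, against 6.27%). In GMPs 4 were higher (7.41%, against 9.93%) and 9 lower (16.7%, against 8.97%). In MEPs 8 were higher (14.8%, against 9.09%) and 10 lower (18.5%, against 11.7%). In CLPs 6 were higher (11.1%, against 5.71%) and 7 lower (13%, against 4.73%). The median log2 difference over the 54 lay between -0.09 in MPP2 and 0.02 in HSCs. The list of NRF2 regulators and targets had 6 of 19 lower and 0 higher in MPP3 (31.6% lower, against 5.79% of all genes). In MPP4 7 were lower and 3 higher (36.8% and 15.8%, against 6.27% and 10.3%). In MEPs 5 were higher and 2 lower (26.3% and 10.5%, against 9.09% and 11.7%). GMPs and CLPs each had 3 higher and 2 lower (15.8% and 10.5%). Over all genes these shares were 9.93% and 8.97% in GMPs and 5.71% and 4.73% in CLPs. The oxidase list had 6 of 7 lower in MEPs, where 11.7% of all genes were lower. It had 2 of 7 higher in CLPs, where 5.71% of all genes were higher. The list of thioredoxins and peroxiredoxins had 4 of 10 lower and 0 higher in GMPs, against 8.97% of all genes lower, and the selenoprotein list at most 1 call in any fraction.

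The named genes of these lists, the 2 with the largest difference in each fraction, were led by Hmox1, the haem oxygenase that is a classic target of NRF2 and is abundant in macrophages that recycle iron. Hmox1 was lower with age in all 8 fractions and among the 2 named in 7, with -3.0 (SE 0.29, adjusted p = 3.6e-07) in MPP4, -2.66 (SE 0.27, adjusted p = 1e-06) in MPP3, -2.39 (SE 0.26, adjusted p = 5.4e-06) in MPP2 and -2.16 (SE 0.27, adjusted p = 2.5e-05) in MPP1. In CLPs it fell from 30.8 and 31.9 to 4.87 and 2.97 CPM, a difference of -3.0 (SE 0.28, adjusted p = 2.7e-07), and in GMPs from 9.83 and 13.4 to 1.16 and 2.85 CPM, a difference of -2.53 (SE 0.32, adjusted p = 8e-06). In MEPs it was at 5.06 and 2.8 CPM in young libraries and at 0 counts in both aged ones, at least 14.6-fold lower against a floor of 3 counts per library. The summed level of the macrophage genes fell from 192 and 198 to 59.6 and 67.8 CPM in MPP3, with 7 of 10 called lower. In MPP4 it fell from 92.2 and 105 to 34.8 and 36.8 CPM, also with 7 of 10 called lower. The sum fell by less in GMPs, from 267 and 275 to 197 and 236 CPM, and in MEPs, from 217 and 230 to 182 and 186 CPM. In CLPs the sums overlapped between the ages, with 321 and 352 CPM in young and 227 and 367 CPM in aged libraries. Gene by gene, 5 of 10 were called lower in GMPs (median log2 difference -2.79) and 5 in MEPs (median -5.56). In CLPs 9 of 10 were called lower (median -5.28) and 1 higher. C1qa, C1qb, C1qc, Cd5l and Fcna were at 0 in both aged GMP libraries, and Cd5l and Fcna in both aged CLP libraries. In MEPs 5 of those 10 genes (C1qa, C1qb, Adgre1, Cd5l and Fcna) were at 0 in both aged libraries. Their part in the Hmox1 difference was not tested. Ncf4, a subunit of the phagocyte oxidase, was also at 0 in aged MEPs and at 2.18 and 2.51 CPM in young ones, at least 8.7-fold lower. The B lineage genes were nearly lost there. The 10 neutrophil genes summed to 253 and 279 CPM in young and 28.1 and 123 CPM in aged MEPs, with 3 called lower and 1 higher. The part of the B lineage, neutrophil or macrophage genes in the Ncf4 difference was not tested.

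Gpx3, the secreted glutathione peroxidase, rose in HSCs, from 8.5 and 7.82 to 31.6 and 41.1 CPM, by 2.16 (SE 0.21, adjusted p = 5.9e-07). It fell in MPP2, with a difference of -1.95 (SE 0.23, adjusted p = 1.6e-05), in MPP3 with -2.80 (SE 0.27, adjusted p = 5.1e-07) and in CLPs with -2.49 (SE 0.43, adjusted p = 0.00032). The neutrophil genes moved with it: 7 of 10 were higher in HSCs (median log2 difference 2.17), and 6 of 10 were lower in MPP2 (median -1.29), 7 in MPP3 (median -2.32) and 10 in CLPs (median -2.33). Other lists moved in these fractions too. Of 6 basophil and mast cell genes, 4 were higher in HSCs and 6 lower in CLPs. In MPP2 3 were lower and 1 higher, and in MPP3 1 was lower and 1 higher. Macrophage genes were lower in HSCs as well (3 of 10), and in MPP2 (5), MPP3 (7) and CLPs (9, with 1 higher). Of 9 erythroid genes 0 were called in HSCs, and 6 were lower in MPP2, 7 in MPP3 and 2 in CLPs. The part of these lists in the Gpx3 differences was not tested. The age difference of Gpx3 in HSCs was above the mean of MPP1 to MPP4 by 3.19 (SE 0.29, adjusted p = 8.2e-07). Cybb, the catalytic subunit of the phagocyte oxidase, was the other named gene in HSCs, with 1.7 and 0.587 CPM in young and 5.32 and 6.7 CPM in aged libraries. Its difference was 2.46 (SE 0.48, adjusted p = 0.0016), beside higher neutrophil genes and 4 of 6 basophil and mast cell genes called higher. In CLPs Cybb went from 328 and 322 CPM in young to 898 and 604 CPM in aged libraries, where all 10 neutrophil genes were lower. The part of such cells in the Cybb differences was not tested. Ncf1, another oxidase subunit, fell in MPP1, with a difference of -0.99 (SE 0.17, adjusted p = 0.00034). Maff, a small MAF partner of NRF2, fell in MPP4, with a difference of -1.51 (SE 0.18, adjusted p = 3.5e-06), and Gpx7, a peroxidase of the endoplasmic reticulum, fell in GMPs, with a difference of -1.41 (SE 0.38, adjusted p = 0.0074) from 1.43 and 1.45 to 0.805 and 0.267 CPM.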

How the data were processed

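Gene expression was measured by RNA-seq in 32 libraries, 2 for each of 8 sorted marrow fractions at each of 2 ages, grouped by the labels. Total RNA was amplified with a SMARTer low-input kit. The authors deposited raw counts per gene, made from reads aligned to mm10 with TopHat2 2.0.13 and Bowtie2 2.1.0 and counted with StringTie. Strand use is not stated and no molecular identifiers are named, so amplification duplicates are counted as reads. A table of normalized values and 8 tables of fold changes and p-values from the authors' own DESeq2 comparisons were not used.

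Libraries held 11237384 to 17723245 counts, and 27 genes whose symbols a spreadsheet had turned into dates took 0.188% of them and kept their place in the fit. Counts were tested with the quasi-likelihood test of edgeR 4.0.16 in R 4.3.3, with TMM scaling, edgeR's filter on low counts (14154 of 24421 genes), 1 model with a mean for each of the 16 groups over all 32 libraries and 16 residual degrees of freedom. Tests were two-sided, p-values were adjusted by Benjamini-Hochberg over all tested genes within a comparison, and a gene was called at an adjusted p under 0.01. The comparisons were Aged against Young in each fraction, a joint test of the age difference over fractions, the age difference of 4 fractions against the mean of the MPPs, and each young fraction against young HSCs. Levels are TMM-scaled counts per 1000000 (CPM), and errors are SDs over 2 libraries. Symbols were matched to GENCODE M21 for position, length and GC content (23358 directly, 676 through an older symbol, 387 not), which covered 98.9% of the tested genes. Promoter sequences are those of RefSeq for GRCm38.p6. The fit was tested on simulated counts with 200 genes changed.

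All 10 genes were named in each comparison, and from the lists around them the 2 with the largest absolute difference among called genes of a fraction. The 10 genes, the lists and the tests were chosen with earlier results of these data known. The alternatives were DESeq2's size factors, DESeq2 1.42.0's test, no filter on low counts, offsets for GC content and length, a replicate block, only the 4 libraries of a fraction, each library left out, and a threshold of 0.05. Scaling by library totals and a block with the numbers of aged MPP1 crossed were added after seeing the data.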

Additional observations from a re-analysis of the deposited data

Results flagged for a closer look

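For 4 of the 10 genes the age difference itself differed between the 8 fractions in a joint test: Prdx1 (adjusted p = 6.31e-09, edgeR), Cat (adjusted p = 5.1e-07), Txn1 (adjusted p = 4.79e-05) and Txnrd1 (adjusted p = 0.00195). Against the mean age difference of MPP1 to MPP4, that of GMPs was lower for Prdx1 (log2 -1.01), Txn1 (-0.73), Nfe2l2 (-0.36) and Sod2 (-0.27) and higher for Cat (0.36). That of MEPs was lower for Prdx1 (-0.83) and Txn1 (-0.54). That of CLPs was lower for Prdx1 (-0.89), Txn1 (-0.89) and Txnrd1 (-0.43) and higher for Cat (0.68), and that of HSCs was lower for Cat (-0.34). The values by library stand above, with the markers of other cells that moved in the same fractions.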

How the results depend on the processing

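Among the log2 differences and joint tests of the 10 genes recomputed under each alternative, 2562 kept their direction and their side of the threshold, 117 lost a call, 70 gained one and 11 changed sign with a call. A further 149 counted as unchanged had a sign change where neither fit made a call. The sign changes with a call were all in young fractions against HSCs. With library totals Sod2 (-0.13), Gpx4 (-0.41) and Txnrd1 (-0.37) changed in GMPs. With the GC and length offsets Prdx1 changed in GMPs (-0.0313, and -0.0295 with the replicate block added) and in MEPs (-0.22 and -0.22), Txn1 in MEPs (-0.30 and -0.30) and Gpx1 in MPP2 (0.20 and 0.20). Why the scaling moved these genes was not tested.

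The number of the 10 genes called moved by over 1.5 times in these cases. With age in MEPs it was 2 in place of 1 under DESeq2's size factors, DESeq2's test, library totals, the GC and length offsets, no filter on low counts and a threshold of 0.05. With age in GMPs it was 2 in place of 1 under DESeq2's test and at 0.05. For the GMP age difference against that of MPPs it was 3 in place of 5 under the offsets, library totals and no filter. In young MPP1 against HSCs it was 1, and 2 under DESeq2's size factors, 3 under DESeq2's test and at 0.05, and 0 under the offsets. In young MPP4 it was 3, and 6 under the offsets, DESeq2's test and 0.05 and 5 under library totals, and in young GMPs 5 in place of 8 under the offsets. A fit with only the 4 libraries of a fraction, which leaves 2 residual degrees of freedom, called 1 in HSCs, 2 in MPP4, and 0 in GMPs, MEPs and CLPs. In the fits without 1 library, differences from MPPs were counted only where the library left out was of the named fraction, not of the MPPs. Without 1 library, where the lone sample of a group was assumed to vary like the other groups, the joint test called 3 to 6 of the 10 genes. The age comparisons called 1 to 3 in HSCs, 2 each time in MPP1, 2 each time in MPP2, 2 each time in MPP3, 2 to 4 in MPP4, 1 to 2 in GMPs, 1 each time in MEPs and 0 to 2 in CLPs. The differences from MPPs called 0 each time in HSCs, 3 to 5 in GMPs, 1 to 2 in MEPs and 4 each time in CLPs. Against HSCs 0 to 1 were called in MPP1, 1 to 3 in MPP2, 1 to 3 in MPP3, 3 to 5 in MPP4, 7 to 8 in GMPs, 7 to 8 in MEPs and 4 to 5 in CLPs.

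The labels do not state that equal replicate numbers pair young and aged libraries. The correlation of the deviations of equally numbered young and aged libraries ran from -0.33 in MPP1 to 0.43 in MPP3. These were also the lowest and highest values over all pairs of groups, whose median was 0.02. The correlation was 0.30 in MPP4 and 0.23 in HSCs, and lay between -0.09 and 0.12 in MPP2, GMPs, MEPs and CLPs. Whether any fraction shared a preparation by number was not tested. With the replicate block the number of the 10 genes called in young MPP1 was 2 in place of 1, and with the numbers of aged MPP1 crossed, a fit chosen after seeing the data, it was 2. No other such count moved by over 1.5 times under the block.

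The number of all genes called, behind the background shares, moved more. The fit with 4 libraries called 204 in place of 764 in HSCs, 2230 in place of 963 in MPP1, 3155 in place of 1105 in MPP2, 1210 in place of 1972 in MPP3, 1405 in place of 2347 in MPP4, 488 in place of 2674 in GMPs, 783 in place of 2944 in MEPs and 136 in place of 1478 in CLPs. DESeq2's test called 1379 in HSCs, 1661 in MPP1, 1857 in MPP2 and 1112 in place of 425 for HSCs against MPPs, where the offsets gave 656 and 642 with the block. At 0.05 the counts were 1587, 1846, 2171, 3412, 3665, 4170, 4636 and 2612 in the same order of fractions, 1166 for HSCs against MPPs and 3440 in place of 2090 in young MPP1. Without 1 library, counts that moved by over 1.5 times ran from 134 to 2455. The smallest difference that 2 libraries a group could call was not computed.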

Other observations

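Among the genes of the lists around the 10, Gclm and Glrx3 were chosen after their values were seen, because they rose in fractions where Prdx1 rose. Gclm encodes the modifier subunit of glutamate-cysteine ligase, the rate-limiting enzyme of glutathione synthesis. It rose with age by 0.58 (SE 0.07, adjusted p = 6.5e-06) in HSCs, 0.62 (SE 0.07, adjusted p = 3.7e-06) in MPP1, 0.57 (SE 0.07, adjusted p = 1.1e-05) in MPP2, 0.34 (SE 0.07, adjusted p = 0.00092) in MPP3 and 0.39 (SE 0.07, adjusted p = 0.00021) in MPP4. Its difference was -0.18 (SE 0.07, adjusted p = 0.06) in GMPs, 0.03 in MEPs and -0.10 in CLPs, none of which passed. Gclc, the catalytic subunit of the same enzyme, was not called in any fraction, and its lowest difference was -0.33 (SE 0.09, adjusted p = 0.011) in CLPs. Glrx3, a glutaredoxin with a role in iron-sulphur cluster handling, rose by 0.30 (SE 0.07, adjusted p = 0.0065) in MPP1, 0.40 (SE 0.07, adjusted p = 0.00066) in MPP2, 0.42 (SE 0.07, adjusted p = 0.0002) in MPP3 and 0.41 (SE 0.07, adjusted p = 0.00018) in MPP4 and fell in GMPs (-0.37 (SE 0.07, adjusted p = 0.00054)). In HSCs its difference was 0.03 (SE 0.07, adjusted p = 0.87). These p-values are from edgeR's test over all genes, and no explanation of the shared pattern was tested.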
